A study of Mus musculus with 2 samples.

Results

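The NADPH-supplying enzymes of the cytosol and the pentose phosphate pathway were followed here through 10 genes in interscapular brown fat of RORα-deficient double-knockout mice (DKO) and wild-type mice (WT). The genes are Me1, Idh1, Idh2, G6pdx, H6pd, Pgls, Pgd, Rpia, Tkt and Taldo1, a list of names that was drawn up with earlier results of these data known. The arrays' gene names gave 9 probes for 7 of the 10 genes, with Me1 listed under its older name Mod1. G6pdx, H6pd and Taldo1 had no probe under their names and were found through the accessions listed for 4 more probes. A further 2 probes, for Me1 and Pgd, were found by description or shared accession. These 15 probes are a small part of the 40979 in use, and the 10 genes of the 14101 measured genes with a symbol.

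DKO mice were homozygous for loss of nuclear receptor genes that include Rora, on C57BL/6, and no promoter or cell type that would limit the loss is named. WT mice were C57BL/6 with no deletion. Both groups were males of 2 to 3 months, and brown fat came from 4 animals per genotype near circadian time 20, with no treatment named. Both genotypes were hybridised together to each of 2 whole mouse genome arrays, which differ in dye: DKO carried Cy5 on the first (the DKO-Cy5 array) and Cy3 on the second (the DKO-Cy3 array). The labels do not say whether the animals' RNA was pooled or shared between arrays, so each genotype counts as 1 replicate and no test was possible. Ratios are log2 of DKO over WT. A mean ± SD is taken over the arrays (n = 2), and its SD reflects the dyes and the measurement, not the spread between animals. Where values come in pairs, that of the DKO-Cy5 array stands first. Gene positions are RefSeq's on GRCm38.p6.

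NADPH is the reducing agent of fatty acid and sterol synthesis and of glutathione and thioredoxin recycling. The oxidative branch of the pentose phosphate pathway makes it in the cytosol from glucose phosphate through G6pdx, Pgls and Pgd, and the non-oxidative branch, with Rpia, Tkt and Taldo1, interconverts the sugar phosphates that result. In adipocytes malic enzyme is the other large source, since it makes NADPH from the malate left over when citrate is exported from mitochondria for lipid synthesis, and isocitrate dehydrogenases add to it in the cytosol and the mitochondria.

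Promoters of the 4 genes with the lowest mean ratios in DKO are shown. The sequences are RefSeq's (GRCm38.p6) and run from 250 bases before the annotated start to 30 bases after it, read on the gene's strand. They lie at chr9:86695885-86696164 (minus strand) for Me1, chrX:74428851-74429130 (minus) for G6pdx, chr4:149166676-149166955 (minus) for Pgd and chr14:30548881-30549160 (plus) for Tkt. Capitals mark matches on either strand to TGACNNNGC, the core of the antioxidant response element.
Me1: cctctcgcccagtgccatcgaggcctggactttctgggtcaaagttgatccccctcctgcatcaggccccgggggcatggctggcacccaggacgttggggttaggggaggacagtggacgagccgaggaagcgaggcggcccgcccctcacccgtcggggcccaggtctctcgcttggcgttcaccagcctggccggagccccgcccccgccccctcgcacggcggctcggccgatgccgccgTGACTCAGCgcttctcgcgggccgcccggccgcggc
G6pdx: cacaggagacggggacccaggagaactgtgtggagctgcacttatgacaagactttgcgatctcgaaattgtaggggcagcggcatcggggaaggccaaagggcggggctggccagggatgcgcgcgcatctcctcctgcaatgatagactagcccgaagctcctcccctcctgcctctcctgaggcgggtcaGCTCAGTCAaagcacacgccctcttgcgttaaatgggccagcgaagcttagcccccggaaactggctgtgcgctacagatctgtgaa
Pgd: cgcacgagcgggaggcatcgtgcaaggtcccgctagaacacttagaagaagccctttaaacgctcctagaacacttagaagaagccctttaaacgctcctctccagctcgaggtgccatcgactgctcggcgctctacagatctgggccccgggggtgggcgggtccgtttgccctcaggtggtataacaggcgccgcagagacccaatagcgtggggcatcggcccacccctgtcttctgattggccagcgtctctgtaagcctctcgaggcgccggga
Tkt: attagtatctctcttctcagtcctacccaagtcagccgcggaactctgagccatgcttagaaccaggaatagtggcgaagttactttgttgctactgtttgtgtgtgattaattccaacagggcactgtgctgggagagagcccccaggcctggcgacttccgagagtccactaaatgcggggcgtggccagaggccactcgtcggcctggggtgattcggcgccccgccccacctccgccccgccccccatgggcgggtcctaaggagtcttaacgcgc
The match in Me1 spans the start, from base −6 to base 3, and that in G6pdx lies at bases −57 to −49 on the opposite strand. No match was found in these Pgd and Tkt windows, and 12.4% of all 32851 promoters of 300 bases in the table held this motif. The nuclear receptor core site AGGTCA (16.3% of all promoters), the E-box CACGTG (7.15%) and the sterol regulatory element (0.234%), searched on both strands, were not found in the 4 windows shown. Among the 13 windows listed for the 10 genes, the only other matches were AGGTCA, on the opposite strand, in the single H6pd window of the table and TGACNNNGC in a second Pgd window that starts inside the gene.

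Me1 had the lowest mean ratio of the 10 genes in DKO (on the DKO-Cy5 array alone Tkt was as low), and the oxidative-branch genes G6pdx and Pgd and the non-oxidative gene Tkt followed it with less even values between arrays, while Idh1, Idh2 and H6pd had mean ratios near or above 0. None of the 10 passed the 2-fold rule, which asks for a mean of at least 2-fold, at least 1.5-fold the same way on each array and signal well above background in the higher genotype. Among all measured genes with a symbol, 0.0496% passed that rule as lower in DKO and 0.17% as higher. A milder rule, with a mean of at least 1.5-fold and at least 1.2-fold on each array, was passed by Me1 alone, lower in DKO, against 0.347% of all measured genes lower and 0.546% higher. Ratios lay below 0 on both arrays for 4 of the 10 genes (Me1, G6pdx, Tkt and Taldo1), above 0 on both for 0 and on opposite sides for 6. Pgd joined the genes below 0 on both arrays, for a count of 5, with the software's ratios, the deposited value table or median signals. Among all measured genes 19.2% lay below 0 on both arrays, 19.2% above and 61.6% on opposite sides. The members are bright, with 8 of the 10 at an average log2 intensity of at least 9. Of the 2077 measured genes as bright, 1.3% passed the milder rule as lower and 2.17% as higher, while 19.8% lay below 0 on both arrays, 21.7% above and 58.5% on opposite sides. The count of 4 among 10 stands beside these shares without a test. With median centring in place of loess the 4 below 0 on both were Me1, G6pdx, Tkt and Pgd, as Taldo1 turned to 0.33 on the DKO-Cy5 array, and 10.01% of all measured genes were then below 0 on both. The median of the 10 was −0.23, against 0.00084 over all measured genes. In bulk tissue, fewer cells of a type and less RNA per cell cannot be told apart.

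**Figure D1:**
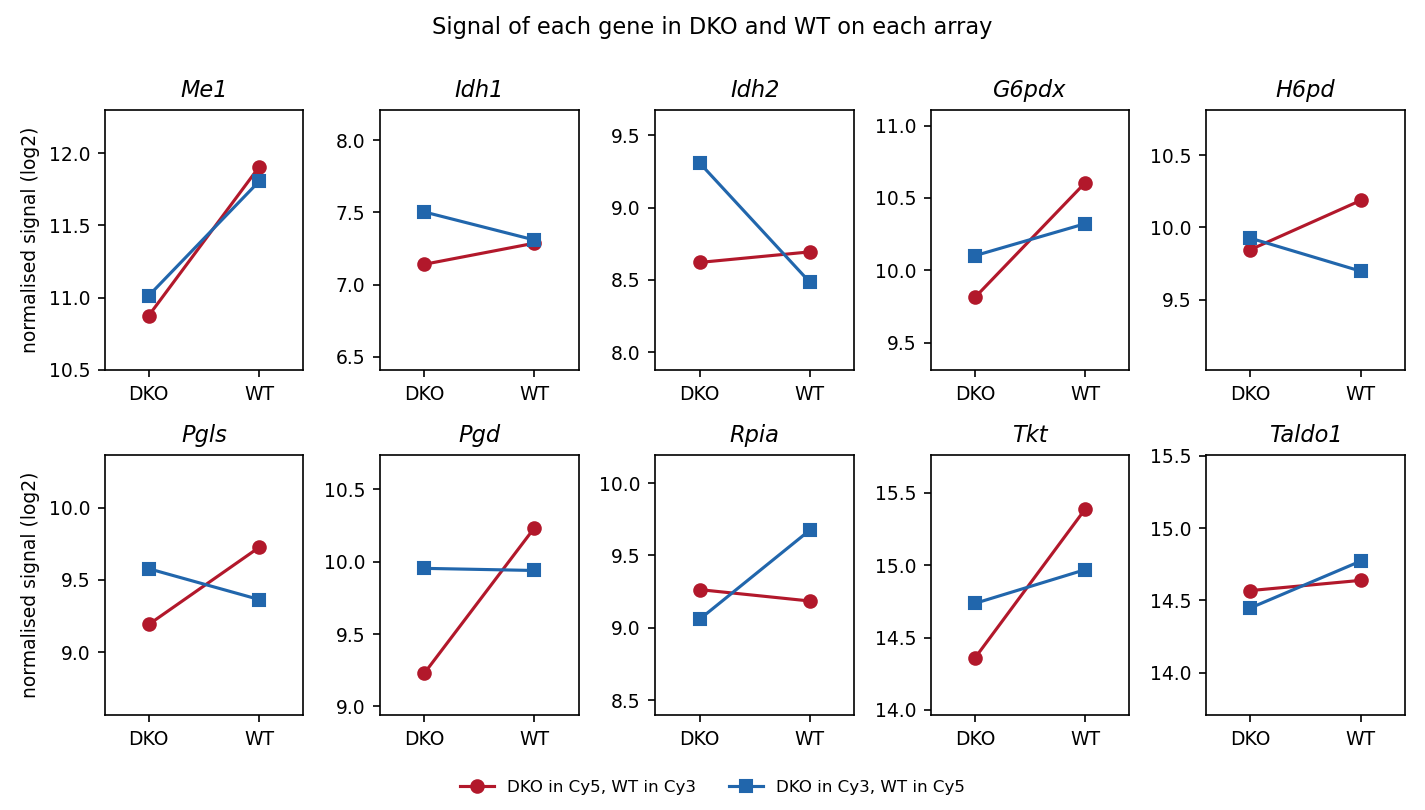
Normalised log2 signal of the probe used for each gene in DKO (left) and WT (right), with a line for each of the 2 arrays and the same span of 1.8 log2 units in every panel. Both lines rise toward WT for Me1, G6pdx, Tkt and Taldo1, and for Me1 they nearly coincide; heights in different panels are not comparable.

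Me1, the cytosolic malic enzyme (gene ID 17436, chr9:86581363-86695914), had normalised log2 signals of 10.88 and 11.01 in DKO, against 11.90 and 11.80 in WT. Both DKO signals lay below both WT signals, by at least 0.79. The ratio was −1.03 on the DKO-Cy5 array and −0.79 on the other, a mean of −0.91 ± 0.17 or 1.88-fold lower in DKO. A second malic enzyme probe, annotated in the files as a Mod1 null malic enzyme mRNA, had signals of 10.91 and 10.94 in DKO, against 11.66 and 11.56 in WT, and a ratio of −0.68 ± 0.09. The 2 probes therefore gave the same direction on each array and differed in size. The scanner software's error on a single log ratio, 0.18 and 0.17 for the first Me1 probe, was as large as the SD between arrays. Among all measured genes with a symbol, 15 had a mean as low as that of Me1 or lower, Me1 included.

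The NADP-dependent isocitrate dehydrogenases did not share the position of Me1. Idh1, the form of the cytosol and peroxisomes (gene ID 15926, chr1:65158616-65186479), had signals of 7.14 and 7.5 in DKO, against 7.29 and 7.31 in WT. Its ratio was −0.15 on the DKO-Cy5 array and 0.19 on the other, and the genotypes overlap. The probe was dim, so the added offset shrinks its ratio, and the software's ratios of −0.26 and 0.35 disagree in sign as well. Idh2, the mitochondrial form (gene ID 269951, chr7:80094845-80118608), had signals of 8.62 and 9.31 in DKO, against 8.69 and 8.48 in WT. Its ratio of −0.07 on the DKO-Cy5 array and 0.83 on the other gave a mean of 0.38 ± 0.64, so the genotypes overlap and the higher mean rests on the DKO-Cy3 array.

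**Figure D2:**
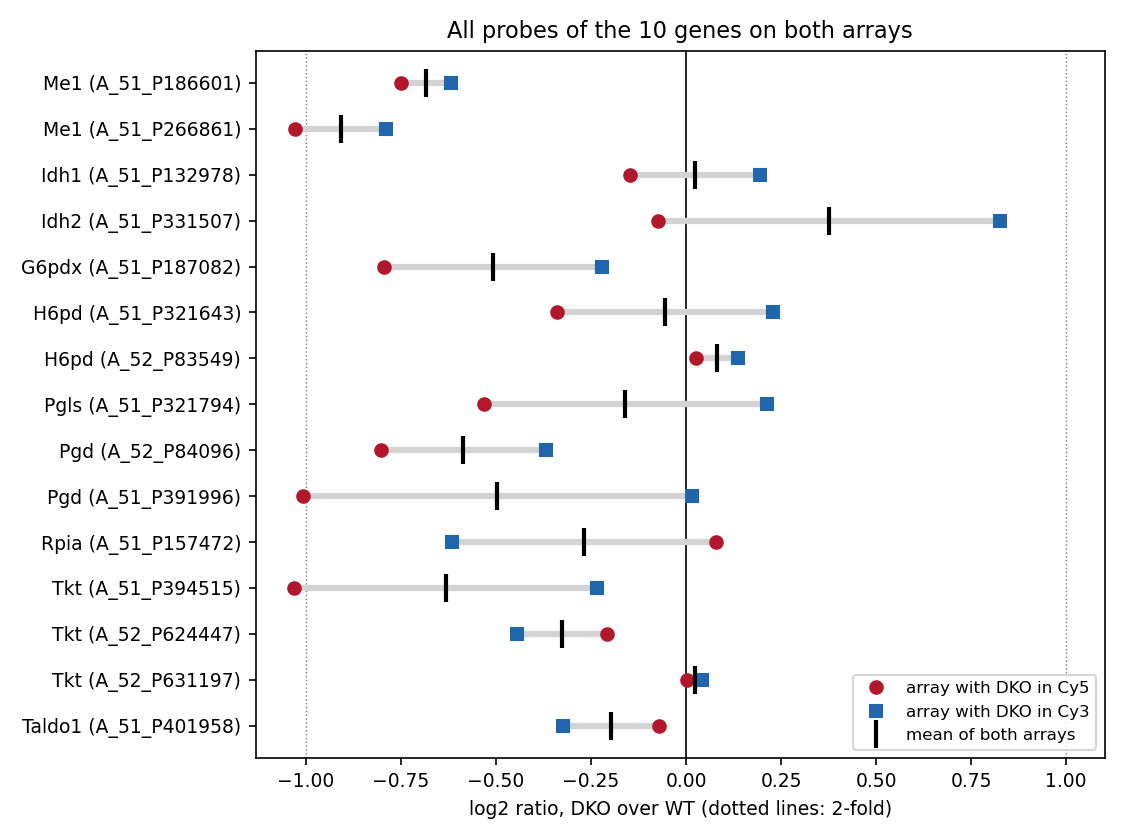
Log2 ratio of DKO over WT for all 15 probes, with red circles for the DKO-Cy5 array, blue squares for the DKO-Cy3 array, black bars for their mean and dotted lines at 2-fold. Both Me1 probes lie left of −0.6 on both arrays, while Idh2, Pgls, H6pd (A_51_P321643), Idh1, Rpia and the Pgd probe A_51_P391996 have their arrays on opposite sides of 0.

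In the oxidative branch, G6pdx and Pgd had lower means in DKO and Pgls and H6pd did not stand apart from 0. G6pdx, which catalyses the committed step (gene ID 14381, chrX:74409483-74428880), had signals of 9.81 and 10.10 in DKO, against 10.61 and 10.32 in WT. Both DKO signals lay below both WT signals, and the ratio was −0.79 on the DKO-Cy5 array and −0.22 on the other (mean −0.51 ± 0.40). The paralog G6pd2, a testis-expressed retrogene copy whose cross-hybridisation to this probe was not tested, read −0.13 ± 0.18 from a dim probe. Pgd, which makes the second NADPH of the branch (gene ID 110208, chr4:149149991-149166705), had signals of 9.23 and 9.95 in DKO, against 10.24 and 9.94 in WT. Its ratio was −1.01 on the DKO-Cy5 array and 0.01 on the other, so its mean of −0.50 ± 0.72 came from 1 array. The software's ratio for that probe was −0.02 on the DKO-Cy3 array.

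A second and brighter Pgd probe, which lists the same accessions but is not named Pgd in the files, gave a more even reading and was left out of the gene's value. Its signals were 11.26 and 11.32 in DKO, against 12.06 and 11.69 in WT, with every DKO signal below every WT signal. The ratio was −0.80 on the DKO-Cy5 array and −0.37 on the other, a mean of −0.59 ± 0.31 or 1.501-fold lower, just past the milder rule. This probe was chosen after its values were seen, and with it and the second malic enzyme probe 5 of the 10 genes lay below 0 on both arrays.

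Pgls hydrolyses the lactone between those dehydrogenases (gene ID 66171, chr8:71592184-71596267) and had signals of 9.19 and 9.58 in DKO, against 9.72 and 9.36 in WT. The genotypes overlap, with ratios of −0.53 and 0.21. H6pd, the glucose dehydrogenase of the endoplasmic reticulum (gene ID 100198, chr4:149979474-150009023), supplies NADPH in that compartment to the enzyme that reactivates glucocorticoids. Its brighter probe read −0.34 on the DKO-Cy5 array and 0.23 on the other (mean −0.06 ± 0.40), and its dimmer probe 0.02 and 0.14 (mean 0.08 ± 0.08). With median centring the brighter H6pd probe turned to 0.08.

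In the non-oxidative branch, the brightest probe of Tkt had the lowest mean, Taldo1 lay slightly below 0 and Rpia differed in sign between arrays. On the DKO-Cy3 array alone Rpia and Taldo1 were lower than Tkt, and over the median of its probes Tkt read −0.22. Tkt, transketolase (gene ID 21881, chr14:30549131-30574724), had signals of 14.36 and 14.74 in DKO, against 15.39 and 14.97 in WT. Both DKO signals lay below both WT signals, with ratios of −1.03 on the DKO-Cy5 array and −0.23 on the other (mean −0.63 ± 0.56). It missed the milder rule only through the DKO-Cy3 array. A dim second Tkt probe read −0.33 ± 0.17 (−0.51 ± 0.18 in the software's ratios), below 0 on both arrays, and the dimmest read 0.02 ± 0.03. Their signals stayed between 6.66 and 7.61 on the log2 scale, and no source used here says which transcript region each probe reads.

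Taldo1, transaldolase (gene ID 21351, chr7:141392160-141402976), had signals of 14.57 and 14.45 in DKO, against 14.64 and 14.77 in WT. The groups did not overlap, but the ratios of −0.07 and −0.32 were small (mean −0.20 ± 0.18). With median centring the ratio on the DKO-Cy5 array was 0.33, higher in DKO. The share of all measured genes whose DKO and WT signals separate without overlap was not counted. Rpia, which forms ribose phosphate for nucleotides (gene ID 19895, chr6:70765720-70792175), had signals of 9.26 and 9.06 in DKO, against 9.18 and 9.68 in WT, with ratios of 0.08 and −0.62. Rpia was thereby the only member above 0 on the DKO-Cy5 array, where the other 9 lay below 0.

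**Figure D3:**
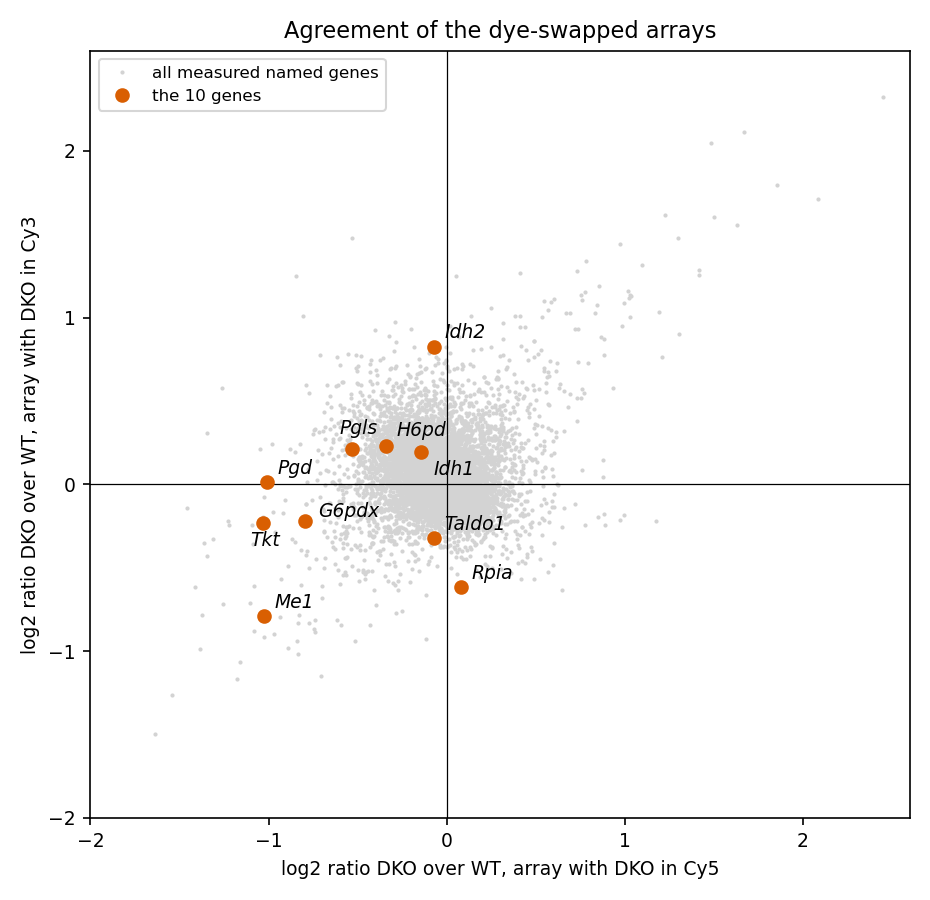
Log2 ratios of DKO over WT, with the DKO-Cy5 array on the x axis and the DKO-Cy3 array on the y axis, for all measured genes with a symbol (grey) and the 10 genes (orange). Me1 lies with the genes that are low on both axes, and Pgd, Tkt and Idh2 lie off the diagonal.

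The 10 genes varied more between arrays than between neighbours in their order. From lowest to highest mean the order was Me1, Tkt, G6pdx, Pgd, Rpia, Taldo1, Pgls, H6pd, Idh1 and Idh2, and no gene differed from the next by more than the larger SD of that pair. Neighbours in a sorted list lie close by construction, so this does not say whether genes further apart in the order differ. The arrays differed by at least 0.5 for 7 of the 10 genes, against 6.83% of all measured genes and 17.3% of the 2077 brighter ones. On the DKO-Cy5 array the median of the 10 was −0.44 and 9 lay below 0, while on the other it was −0.10 and 5 lay below 0. Over the same 2077 genes the medians were −0.0030 and 0.015. Across genes, which are not independent replicates, the arrays correlated with r of 0.077 over all measured genes and 0.24 over these brighter genes. For Pgd the software's ratios differed between arrays by 1.04, where its combined error was 0.24, and for the first Me1 probe by 0.20, where that error was 0.25. By the software's error model, with a threshold of 0.01 on both arrays and the same sign, Me1 alone of the 10 was called, lower in DKO, against 0.589% of all measured genes lower and 0.766% higher (1.73% and 2.41% of the brighter ones). That model covers measurement error within a single array.

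Genes grouped as spending the NADPH, feeding it carbon or regulating lipogenesis were examined next, from lists chosen with earlier results of these data known. Of the 9 measured genes among lipogenic NADPH users and their supply, 9 lay below 0 on both arrays (8 with the software's ratios, median signals or loess on detected probes), against 19.2% of all measured genes. The count takes in Fasn, which reached saturation and lay next to 0 on the DKO-Cy3 array, and the regulators Srebf1, Mlxipl and Thrsp, which neither use NADPH nor supply carbon. The list's name is also loose for the elongase Elovl6 and the desaturases Scd1 and Scd2, whose own use of NADPH was not examined. The count is therefore not one of genes that spend NADPH. Acss2, an acetyl-CoA synthetase, passed the 2-fold rule (−1.19 ± 0.28), and Acss2, Acly, Scd2 and Thrsp passed the milder rule (3 genes of the list with the software's ratios, the deposited value table or median centring). As lower in DKO, 0.347% of all measured genes and 1.3% of the brighter ones passed the milder rule. The list's median was −0.56, with −0.81 on the DKO-Cy5 array and −0.33 on the other. ATP citrate lyase (Acly) supplies both the acetyl-CoA and, by way of oxaloacetate, the carbon that Me1 oxidises, and it read −0.99 ± 0.38. The brightest 2 of the list were Fasn and Scd1 (−0.56 ± 0.17). Acaca and Acacb matched no probe in use.

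Of 18 other genes of NADPH and pentose phosphate metabolism, none passed the milder rule, and the median was −0.01 (0.06 with median centring). Both ratios lay below 0 for 5 and above 0 for 2, against 19.2% of all measured genes each way. The lowest was Slc25a1, the mitochondrial citrate exporter, at −0.62 and −0.48 (mean −0.55 ± 0.10), chosen after its values were seen. The brightest were the glycolytic isomerase Gpi1 (−0.17 ± 0.10) and cytosolic malate dehydrogenase Mdh1, whose ratio was 0.65 on the DKO-Cy5 array and −0.63 on the other. Among 7 measured users of NADPH in glutathione, thioredoxin and other reactions, Por (0.25 ± 0.08) and Cat (0.05 ± 0.35) were brightest, and Dhcr7, the last enzyme of cholesterol synthesis, passed the milder rule (−0.73 ± 0.30), though not with median centring. The list's median was 0.05. Most genes of this list and of the 18 above were dim, with an average log2 intensity under 9, where the offset shrinks ratios. All measured lipogenic genes were brighter, so the medians of these lists are not compared at like intensity. The NAD-linked relatives Idh3a, Idh3b, Idh3g and Mdh2 had a median of 0.20 with 0 of 4 below 0 on both arrays. The brightest of these were Mdh2 (0.06 ± 0.24) and Idh3g (0.22 ± 0.29).

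The 7 measured targets of the oxidant-responsive factor NRF2 outside the pathway, a factor also known to induce Me1, G6pdx, Pgd, Tkt and Taldo1, had a median of 0.04. None passed the milder rule, while 1 lay below 0 on both arrays and 3 above, against 19.2% of all measured genes each way. The brightest were Gstm1 at 0.17 ± 0.23 and Srxn1 at 0.13 ± 0.13. Only Gstm1 of the list had an average log2 intensity of at least 9, and the offset shrinks the ratios of the dimmer genes. Whether NRF2 activity differed between genotypes was not tested.

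**Figure D4:**
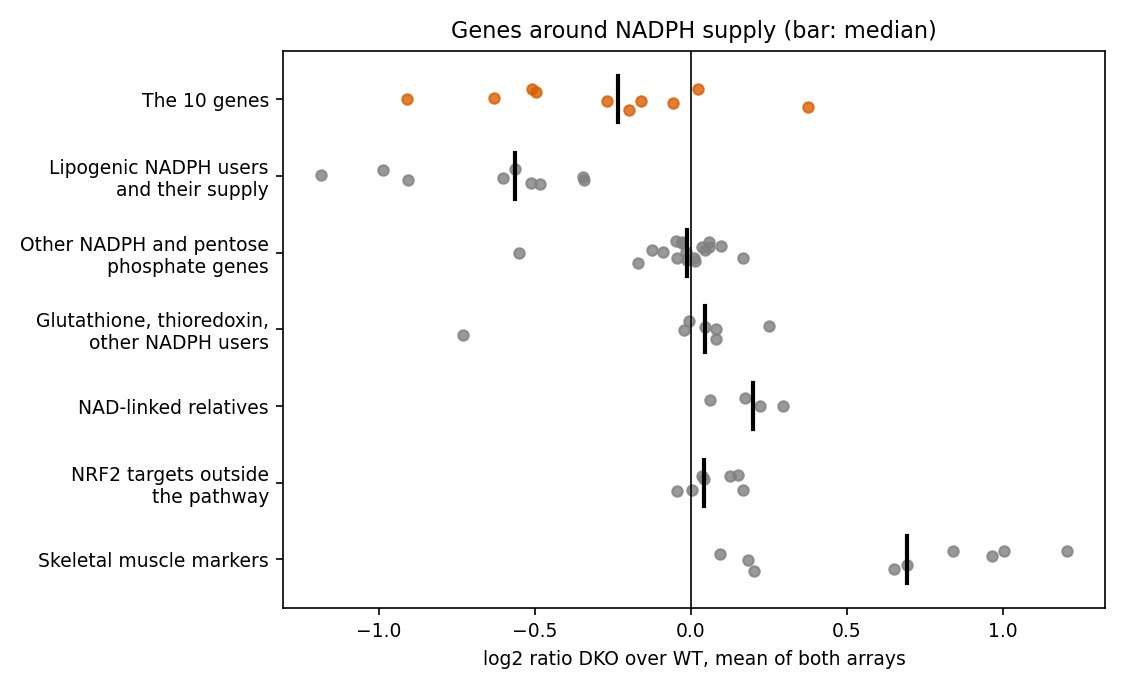
Mean log2 ratio of DKO over WT for the 10 genes (orange) and the measured genes of each list (grey), with a black bar at each median. The median of the lipogenic list lies at −0.56 and that of the 10 genes at −0.23, while the other NADPH lists lie near or above 0 and the skeletal muscle markers at 0.69. Most genes of the other NADPH lists and the NRF2 list were dim, where the offset shrinks ratios, while all measured lipogenic genes were brighter.

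The 5 measured named genes whose pair of ratios lay nearest to that of Me1, by Euclidean distance over the 2 arrays, were Bmyc (0.031), Pnpla3 (0.093), Dhx32 (0.10), Scd2 (0.11) and Ccdc80 (0.12). Bmyc was dim, at an average log2 intensity of 7.13 against 11.40 for Me1, and the offset shrinks the ratios of dim probes. Pnpla3, the lipase-like protein adiponutrin, read −0.86 ± 0.10, and the desaturase Scd2 read −0.91 ± 0.28. Of the other members the nearest was Tkt, at a distance of 0.56.

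The labelled tissue and the other cells it could hold were checked with markers. Ucp1, which defines brown adipocytes, had log2 signals of 15.10 and 15.20 in DKO, against 14.37 and 14.46 in WT. Of the 8 listed brown adipocyte genes 6 lay above 0 on both arrays, against 19.2% of all measured genes and 21.7% of the brighter ones. The dimmer of the list were Adrb3, Prdm16, Ppargc1a and Dio2, with an average log2 intensity under 9. Of the 8, the thyroid hormone deiodinase Dio2 (1.89 ± 0.32) and the elongase Elovl3 (1.02 ± 0.02) passed the 2-fold rule. Cidea, the brightest of the list, reached saturation and lay below 0 on both arrays (−0.14 ± 0.02). Prdm16 differed in sign between arrays (−0.08 ± 0.29). Most skeletal muscle markers were higher in DKO, by unlike amounts, with a median of 0.69. Above 0 on both arrays were 8 of 9 measured, against 19.2% of all measured genes. The milder rule was passed by 5 as higher in DKO, against 0.546% of all measured genes and 2.17% of the brighter ones. The summed signal of the muscle markers was 10422 and 12660 in DKO, against 7676 and 7169 in WT. Myl1 (0.20 ± 0.04) and Acta1 (0.84 ± 0.36) were brightest, and Eno3 (1.21 ± 0.33) and Mb (2.01-fold higher on average) passed the 2-fold rule. Pvalb (0.09 ± 0.17) differed in sign between arrays, and Ckm read 0.05 on the DKO-Cy5 array and 1.25 on the other. For the 7 general adipocyte markers the summed signal was 86557 and 111506 in DKO, against 119935 and 90659 in WT, sums that are mostly Fabp4, which reached saturation. Of the 7, 1 had both ratios below 0 and 1 both above, against 19.2% of all measured genes each way. With median centring these counts were 0 and 4. Macrophage (0.06), endothelial (0.03) and liver (0.07) medians lay near 0, the last turning to −0.0086 with median centring, and the erythroid median was −0.46 with 2 of 3 below 0 on both arrays. No listed marker with a probe was below background in both genotypes. The part of muscle or blood in the ratios of Me1 or the pathway genes was not tested. Rora itself read −0.38 ± 0.04 and −0.47 ± 0.10 on its 2 probes, lower in DKO on each array. Both probes were dim, and the software's ratios, without the offset, were −0.91 and −1.02 for the first and −1.42 and −1.61 for the second. For these probes no source used here says whether they lie in the deleted part.

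**Figure D5:**
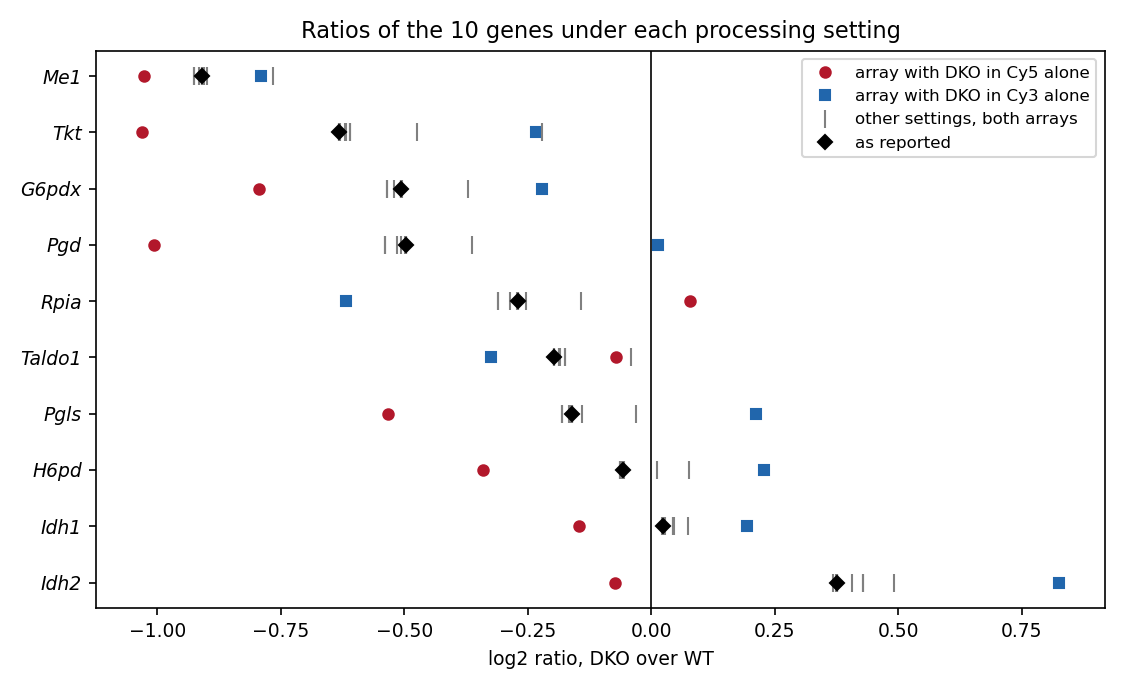
Mean log2 ratio of DKO over WT for each of the 10 genes as reported (black diamonds), under the other settings that use both arrays (grey ticks) and on each array alone (red circles and blue squares). Me1, Tkt, G6pdx and Taldo1 stay below 0 throughout, and Me1 stays between −1.03 and −0.77.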

How the data were processed

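RNA of interscapular brown fat from DKO and WT mice was compared on 2 dye-swapped Agilent arrays. Images were read by the authors in Agilent Feature Extraction 7.5, per the submitters' processing notes, and the deposited spot files hold linear intensity and local background in each dye, per the file headers. Per the file headers the deposited files also hold the software's log10 ratios of Cy5 over Cy3, with an error score and a p-value from its error model for one array. A deposited value table of the series gives log2 ratios, which matched the spot files within 0.001 for 40962 of 41001 and 41101 of 41141 values, and both columns had a median of 0.

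Here mean signals were corrected with normexp (offset 50) and loess-normalised in limma 3.58.1 under R 4.3.3, with control spots at weight 0, outlier spots left out and saturated spots kept. Ratios of the DKO-Cy3 array were sign-reversed to read DKO over WT. Per-channel signals were put on one scale with Aquantile. The offset shrinks ratios of dim probes, and the number of arrays limits the precision. Median mean signals were 107 to 130 over local backgrounds of 57 to 72. A gene was represented by the brightest measured probe that its name or RefSeq accession gave, and was measured where at least a single genotype passed the software's well-above-background flag on each array.

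Of the 41174 probes on the arrays, 20322 got no name through RefSeq symbols and accessions (GRCm38.p6), used for names and promoters. The shares of all measured genes leave these unnamed probes out. Probe sequences were not used here. The members, lists and motifs were chosen with earlier results of these data known. All probes of the 10 genes are named, and from each pathway list the genes past the 2-fold rule and the 2 brightest; the 5 genes nearest to Me1 are named too, and any further gene was picked with its values known. The further Me1 and Pgd probes, of which that of Pgd is brighter than the one used, do not enter the gene values. Counts and plots were made with pandas 2.3.3, numpy 2.4.6 and matplotlib 3.10.9 in Python 3.11.15. 1 item of the study is not reported here.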

Additional observations from a re-analysis of the deposited data

How the results depend on the processing

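Of the 10 genes, Me1, Tkt, G6pdx and Taldo1 kept mean ratios below 0 in all 11 alternative settings (a smaller offset of 16, the deposited software ratios and value table, median in place of mean signals, median centring, loess fitted to detected probes, both dim filters, the median of a gene's probes, and each array alone). The settings are not independent checks. Both dim filters left every member's value as reported, and the value table repeats the software ratios. For these genes the sign on each array alone was already fixed, as both arrays lay below 0. The ranges were −1.03 to −0.77 for Me1, −1.03 to −0.22 for Tkt, −0.79 to −0.22 for G6pdx and −0.32 to −0.04 for Taldo1, which read 0.33 on the DKO-Cy5 array with median centring. Pgd, Pgls, Rpia, Idh1 and Idh2 changed sign on a single array, and H6pd in 3 settings. The count of genes passing the 2-fold rule was 0 with both arrays in every size setting, also at 3-fold, and 1 by the software's error model. With 1 array alone the count passing the 2-fold rule was 0 to 3 and the count below 0 was 5 to 9. The count at 1.5-fold was then 3 (Me1 and Rpia lower, Idh2 higher, on the DKO-Cy3 array) to 4 (Me1, Tkt, G6pdx and Pgd, lower). The median was −0.44 to −0.10, the lower median and larger counts coming from the DKO-Cy5 array. Over all measured genes the medians were −0.0038 and 0.0030. The shares of all measured genes given above need both arrays and cannot be set beside these counts. Shares for 1 array alone were not counted. The count at 1.5-fold was 2 with the further probes of Me1 and Pgd, a setting chosen after seeing the data. The median was −0.09 with median centring, and of all measured genes 35 were then lower and 107 higher at 1.5-fold, against 49 and 77 as reported. Without turning the sign, in the dye direction, 5 of the 10 lay below 0 on both arrays, against 4 in the genotype direction. Of all measured genes 61.6% had the same sign on both arrays in the dye direction, below or above 0. The share below 0 alone was not counted. No paired analysis was possible because each ratio already pairs the genotypes within an array and the labels name no further pairing. Dim signal limits Idh1 and the lesser Tkt probes.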
